A study of Mus musculus with 4 samples.

Results

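The receptor Trem2, its adaptors Tyrobp and Hcst, and the signalling genes Syk, Plcg2 and Inpp5d were followed in myeloid cells sorted from the corpus callosum, the large white matter tract of the mouse brain, by the surface protein CD11b. The genes were chosen by name, 6 of the 16342 genes listed in any of the 4 count tables, and all 6 were listed in every table. Live cells with a nucleus that carried CD11b were taken by flow cytometry, and their RNA was sequenced cell by cell from the 3′ end of each transcript in droplets. All animals were male C57BL/6 mice of 13 weeks, with no genetic change named. The 2 week 0 libraries came from mice that were not treated, and the 2 week 5 libraries from mice given cuprizone, a copper chelator that kills oligodendrocytes and strips myelin from the corpus callosum. The sources used here give neither the cuprizone dose nor how many animals a library holds. Since no label says that the libraries are separate animals, p-values measure the spread between these libraries, which may be technical.

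TREM2 is a surface receptor of microglia that binds lipids, lipoproteins and myelin debris and has almost no signalling tail of its own. It signals through TYROBP, whose ITAM motif, once phosphorylated by Src family kinases, recruits the tyrosine kinase SYK. SYK in turn activates the phospholipase PLCG2, which releases calcium. HCST is a second adaptor that can pair with TREM2 and recruits PI3-kinase, while the lipid phosphatase INPP5D removes the lipid that PI3-kinase makes and so damps the signal. In mice that lack Trem2, microglia around lesions fail to complete the change to a state called disease-associated, in which Apoe, Spp1, Cst7 and other lipid and phagocytic genes rise. Loss of TREM2 or TYROBP in people causes Nasu-Hakola disease, with loss of white matter.

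Trem2 lies on chromosome 17 (48346401 to 48354147, plus strand), Syk on chromosome 13 (52583173 to 52648792, plus), Plcg2 on chromosome 8 (117498291 to 117635142, plus) and Inpp5d on chromosome 1 (87620312 to 87720507, plus) in the GENCODE M21 annotation of GRCm38. Tyrobp (chromosome 7, 30413760 to 30417585, plus) and Hcst (30417712 to 30419854, minus) run towards each other, with 126 bases between their 3′ ends, where the kit reads. Plcg2 overlaps Gm27361 on the other strand. The sources used here do not say if the counting used strand, so reads of such neighbours may not be told apart.

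The 250 bases before the start of each gene were read from RefSeq (GRCm38.p6), which had an entry for 5 of the 6 genes and none for Tyrobp. They are shown for the receptor, for the adaptor Hcst, which rose with the disease-associated score, and for the phosphatase, which fell. Capitals mark AGGAAGT, a form of the site bound by ETS factors such as PU.1, a regulator of myeloid genes, searched on both strands (ACTTCCT on the other), with no other motif searched.
Trem2, chr17:48346151-48346400, plus strand: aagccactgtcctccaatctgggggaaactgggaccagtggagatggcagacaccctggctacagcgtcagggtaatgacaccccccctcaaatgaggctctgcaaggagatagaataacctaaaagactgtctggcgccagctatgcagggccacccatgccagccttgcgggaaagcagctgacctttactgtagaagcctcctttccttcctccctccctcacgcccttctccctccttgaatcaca
Hcst, chr7:30419855-30420104, minus strand: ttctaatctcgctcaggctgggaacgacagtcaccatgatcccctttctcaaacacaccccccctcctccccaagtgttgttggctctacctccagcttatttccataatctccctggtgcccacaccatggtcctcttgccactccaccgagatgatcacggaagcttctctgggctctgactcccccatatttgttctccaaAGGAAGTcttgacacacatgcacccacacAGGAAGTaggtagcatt
Inpp5d, chr1:87620062-87620311, plus strand: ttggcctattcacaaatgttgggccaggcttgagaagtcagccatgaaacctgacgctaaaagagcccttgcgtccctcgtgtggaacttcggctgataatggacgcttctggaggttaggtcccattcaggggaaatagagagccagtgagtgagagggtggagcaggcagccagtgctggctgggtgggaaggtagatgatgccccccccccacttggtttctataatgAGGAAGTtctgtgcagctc
Hcst held 2 matches and Inpp5d 1, while Trem2, Syk and Plcg2 held 0. Of all 32851 RefSeq windows of this length, 2525 (7.69%) held at least 1. A gene that rose (Hcst) and a gene that fell (Inpp5d) along the score both had a match.

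The count tables held 2415001 and 4631622 UMIs (unique molecular identifiers, 1 for each captured transcript) in the week 0 libraries (replicate 1, then 2) and 6559032 and 3322818 in the week 5 libraries, with 1000 barcodes in every table. Of 3707 cells kept, 3570 fell in 7 clusters called microglia-like from their markers, 100 were border-associated macrophage-like and 37 stayed unnamed. Each of the 10 microglia markers was present in all libraries. Their summed level was 28967 and 32831 plain CPM (UMIs scaled to a common library total, with no other scaling) at week 0, and 17474 and 21780 at week 5. Microglia-like cells differed in depth, with medians of 1499.5 and 3912.5 UMIs at week 0 and 6117.5 and 2336 at week 5. The share of the nuclear RNA Malat1 was 7.68% and 4.94% against 2.77% and 5.88%. The most genes in any barcode were 2999, 6615, 3999 and 2996 in the same order, so the upper ends of the tables also differed. Only 6 barcode sequences occurred in more than 1 table.

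Levels of Tyrobp, Trem2 and Inpp5d differed with the depth of the cell, at both times. In cells under 1000 UMIs, Tyrobp stood at 549 to 665 plain CPM in the 4 libraries, against 2585 to 3194 in cells of 5000 to 8000 UMIs. Trem2 went from 1027 to 1516 in the shallow cells to 2263 to 2480 in the deeper ones. Inpp5d ran the other way, from 891 to 1292 down to 482 to 608. Shallow cells thus held relatively little message for the receptor and its adaptor and more for the phosphatase, in treated and untreated tissue alike. Cells under 2000 UMIs made up 596 and 151 of the microglia-like cells at week 0 and 228 and 405 at week 5, and Malat1 took 11.1% to 14.3% of their UMIs. The comparison of week 5 with week 0 was therefore made over all microglia-like cells and again over the 1925 cells of at least 3000 UMIs (225 and 658 at week 0, 644 and 398 at week 5), where Malat1 took 2.29% to 4.56%.

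**Figure D1:**
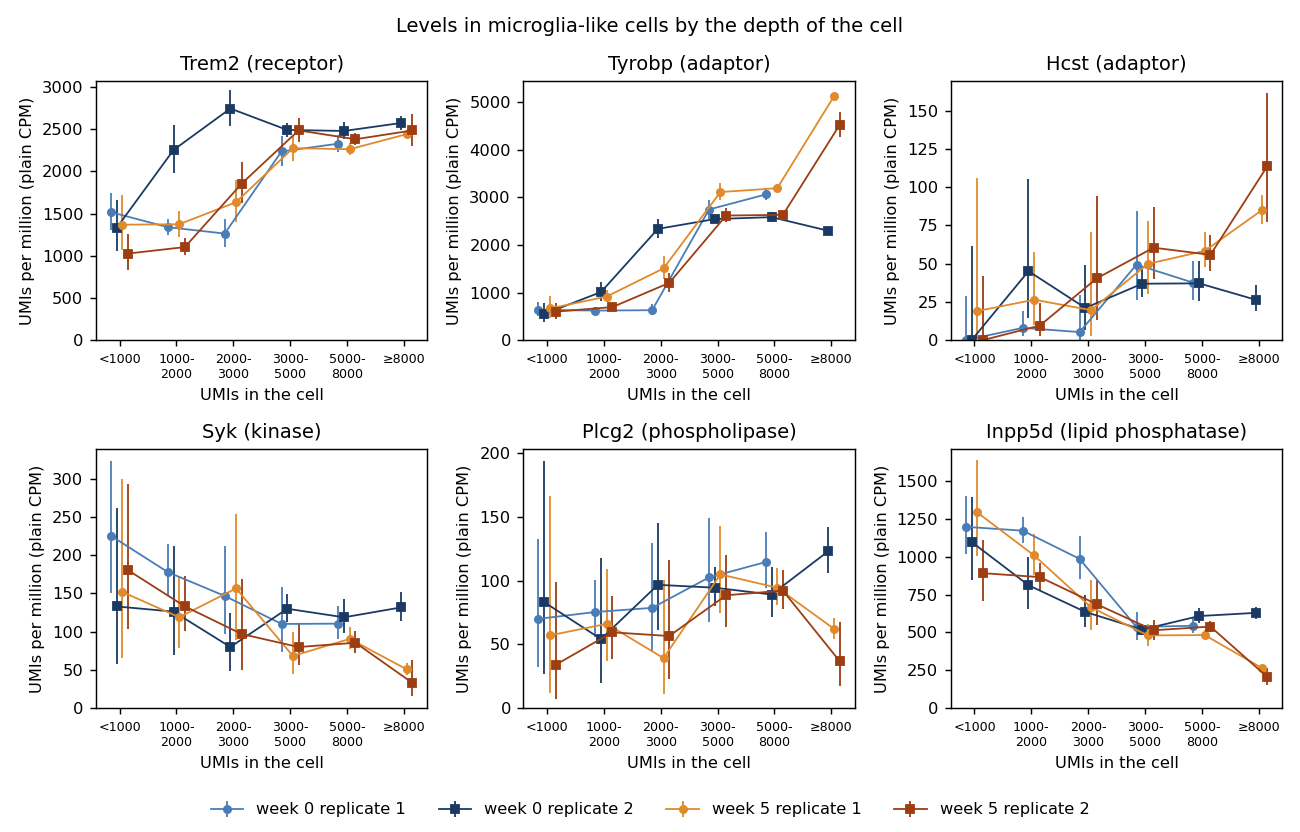
Level of each gene (plain CPM, linear axis) in microglia-like cells of 6 depth bands, 1 line for each library; bars are exact Poisson 95% intervals, which cover counting error only. Tyrobp is low and Inpp5d high in shallow cells of every library. For genes other than Trem2 the weeks part most in cells of 8000 UMIs or more, where week 0 replicate 1 had too few cells to be shown.

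For genes other than Trem2, the weeks lay furthest apart in the deepest cells. Week 0 replicate 1 had too few cells of at least 8000 UMIs to be read. In such cells Tyrobp was at 2298 plain CPM in week 0 replicate 2 and at 5130 and 4528 in week 5 replicates 1 and 2. Hcst was at 26.3 against 84.8 and 114. Trem2, the receptor, was at 2574 against 2442 and 2486. Syk was at 132 against 50.7 and 33.0, Plcg2 at 123 against 62.1 and 36.7, and Inpp5d at 629 against 266 and 205. Only 28 such cells came from week 5 replicate 2, against 280 from replicate 1, and with 1 library at week 0 there is no test. The most genes in any barcode were 6615 in week 0 replicate 2 and 3999 and 2996 in week 5 replicates 1 and 2. The tables may thus have kept different cells of this depth, and the part of this in the values was not tested.

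The first comparison asks how the pathway differs between demyelinated and untreated tissue. Over all microglia-like cells, 1 of the 6 genes passed the test, the adaptor Hcst, which was higher at week 5. The test was edgeR's quasi-likelihood test on UMIs summed for each library, with p-values adjusted by Benjamini-Hochberg over 11066 genes and a gene called at an adjusted p under 0.05. It called 3.5% of all genes, so 1 of 6 says little about the group. In such sums, fewer cells that carry a transcript and less of it in each cell cannot be told apart. Where groups are said to part or not to overlap, the share of all genes that did so was not counted. Levels below are CPM with TMM scaling, which also corrects the library totals for differences in makeup.

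Trem2, the receptor, was at 1752 and 2338 CPM in week 0 replicates 1 and 2 and at 2789 and 2127 in week 5 replicates 1 and 2. The groups overlapped, and the log2 difference was 0.27 (SE 0.39, edgeR adjusted p = 0.86). The 95% interval ran from −0.58 to 1.11.

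Tyrobp, the ITAM adaptor, was at 1831 and 2228 CPM at week 0 and at 5039 and 2369 at week 5. Week 5 replicate 1 stood far above the other 3 libraries, while replicate 2 was close to the higher week 0 library. The log2 difference was 0.87 (SE 0.45, edgeR adjusted p = 0.467). As each library was left out, it ran from 0.23 to 1.36, the latter without week 5 replicate 2. The size of the difference thus turned on single libraries, and in that fit week 5 had 1 library and no spread of its own. Week 5 replicate 1 stood apart in other ways too. Its 9 monocyte markers summed to 147 plain CPM, against 38.1 in replicate 2 and 11.7 and 13.8 at week 0. Its 6 choroid plexus or ependymal markers summed to 232, with Ccdc153, Foxj1, Kl and Tmem212 at 0, against 3.98 in replicate 2 and 73.3 and 0.906 at week 0. The 12 state genes described below took 5.22% of its UMIs and 2.41% of those of replicate 2. Week 0 replicate 2 differed in another list. Its 8 neutrophil markers summed to 546 plain CPM, against 255 in week 0 replicate 1 and 192 and 253 at week 5. The part of these in the result was not tested.

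Hcst, the PI3-kinase adaptor, was a low transcript, with 60 and 142 UMIs in the week 0 libraries and 439 and 160 in those of week 5. Its level was 24.8 and 29.96 CPM at week 0 (mean 27.4 ± 3.62, SD, n = 2) and 85.6 and 52.0 at week 5 (68.8 ± 23.8, SD, n = 2). Both week 5 libraries lay above both of week 0, and the log2 difference was 1.33 (SE 0.27, edgeR adjusted p = 0.0168). The call was lost without the cluster highest in disease-associated genes (0.73, edgeR adjusted p = 0.0775) and with each cell thinned to 1000 UMIs (0.82, edgeR adjusted p = 0.581). HCST is also the adaptor of a receptor of T and NK cells. In the microglia-like cells the 10 T and NK cell markers had 0 UMIs at week 0, while at week 5 replicate 1 held 7 UMIs of 1 marker and replicate 2 held 18 UMIs of 7 markers (1.13 and 5.96 plain CPM). Cd8a, Gzma and Ncr1 were at 0 in all of them.

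Syk, the kinase, was at 129 and 117 CPM at week 0 and at 82.5 and 88.1 at week 5. The groups did not overlap, and the log2 difference of −0.53 (SE 0.22, unadjusted p = 0.032 by edgeR) did not pass over all genes (edgeR adjusted p = 0.283). Plcg2, the phospholipase, was at 87.8 and 95.2 against 88.9 and 77.4 CPM, with a log2 difference of −0.14 (SE 0.21, edgeR adjusted p = 0.872). Inpp5d, the phosphatase, was at 732 and 556 against 463 and 556 CPM, with −0.34 (SE 0.30, edgeR adjusted p = 0.737). Plcg2 overlapped between the weeks, and for Inpp5d both replicates numbered 2 were at 556 CPM.

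**Figure D2:**
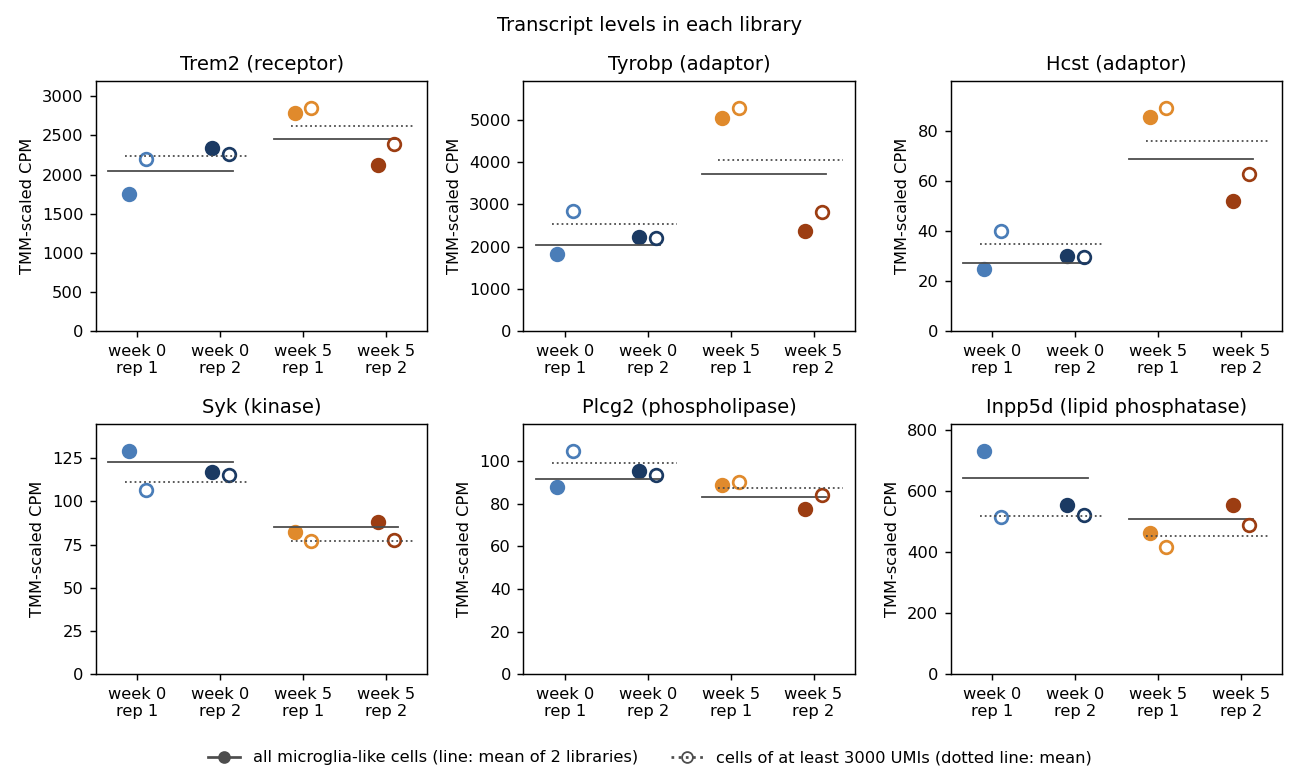
TMM-scaled CPM of each gene in each library (linear axes from 0); filled points are all microglia-like cells, open points those of at least 3000 UMIs, and lines are the means of the 2 libraries of a week. Hcst lies higher and Syk lower in both week 5 libraries than in both of week 0, while for Tyrobp week 5 replicate 1 (5039 CPM) stands apart.

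In the cells of at least 3000 UMIs the picture was similar: 1 of 6 genes passed, Hcst, where 3.2% of 10555 genes did. Hcst was at 40.1 and 29.6 CPM at week 0 and at 89.2 and 62.7 at week 5, a log2 difference of 1.18 (SE 0.24, edgeR adjusted p = 0.0309). In these cells no T or NK cell marker had a UMI in 3 libraries, and week 5 replicate 1 held 4 UMIs of Ms4a4b. The call was lost without either week 0 library (edgeR adjusted p = 0.437 and 0.812), where 0 of all genes passed, with 971 and 576 at an unadjusted p under 0.05. It was also lost with library size in place of TMM (0.91, edgeR adjusted p = 0.0574), with cells thinned to 3000 UMIs (0.85, edgeR adjusted p = 0.0616) and without the cluster highest in disease-associated genes (0.65, edgeR adjusted p = 0.109).

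Syk again did not overlap between the weeks in these deeper cells (107 and 115 against 77.2 and 77.6 CPM, log2 difference −0.52, SE 0.18, edgeR adjusted p = 0.185). With replicate number as a block, Syk passed there (edgeR adjusted p = 0.0138), where 1289 genes did in place of 338. Both week 5 libraries lay above both of week 0 for Trem2 (2198 and 2266 against 2853 and 2390 CPM), with a log2 difference of 0.23 (SE 0.28, edgeR adjusted p = 0.797). Tyrobp was at 2846 and 2212 against 5279 and 2819 CPM, so that week 5 replicate 2 fell between the week 0 libraries. Plcg2 (105 and 93.6 against 90.0 and 84.2 CPM) and Inpp5d (516 and 523 against 417 and 491 CPM) were lower in both week 5 libraries, with log2 differences of −0.18 and −0.20 that did not pass (edgeR adjusted p = 0.747 and 0.778). In cells under 2000 UMIs, Hcst had 4 to 7 UMIs in each library and could not be tested. There 0 of the other 5 genes passed in edgeR, or had an unadjusted p under 0.05, and edgeR called 1.69% of 6385 genes. Over all cells, which needs no cluster names, 1 of 6 passed where 2.69% of 11247 genes did: Hcst again, with a log2 difference of 1.39 (SE 0.22, edgeR adjusted p = 0.00959), not called with cells thinned to 1000 UMIs (1.02, edgeR adjusted p = 0.208).

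The second comparison asks how the 6 genes vary with the disease-associated state among the cells of treated mice. Each week 5 microglia-like cell of at least 1000 UMIs was scored by 12 genes (Apoe, Spp1, Lpl, Cst7, Axl, Itgax, Clec7a, Lgals3, Gpnmb, Fabp5, Igf1 and Csf1), none of them among the 6, after thinning to 1000 UMIs. The cells of each library were cut into terciles, lowest, middle and highest, of near equal cell number. A tercile is a range of a score and not a cell type. The state genes took 0.213% and 0.0861% of UMIs in the lowest terciles of replicates 1 and 2, and 9.06% and 6.36% in the highest. Untreated cells held 0.100% and 0.0478%, too little to cut.

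Within the treated tissue the pathway split in opposite directions. The receptor and both adaptors, Trem2, Tyrobp and Hcst, rose from the lowest to the highest tercile, and the kinase, the phospholipase and the phosphatase, Syk, Plcg2 and Inpp5d, fell. All 6 passed edgeR's test with library as a block, where 23.0% of 9590 genes passed (13.7% higher and 9.26% lower). The 6 genes were selected by name, yet a large share of all genes moved in this comparison, and the terciles of a library share that library.

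Trem2 was at 1864, 2206 and 3493 CPM in the lowest, middle and highest tercile of week 5 replicate 1, and at 1811, 1862 and 2576 in those of replicate 2. The receptor thus stood highest in the top tercile of both libraries (log2 difference 0.71, SE 0.18, edgeR adjusted p = 0.00253). Scaled by library size alone it was 0.26 and did not pass (edgeR adjusted p = 0.12), while the other 5 genes passed in the same directions, where 38.7% of all genes did. That scaling took the median of all genes from −0.02 to −0.48, and the share of called genes that were higher from 59.7% to 17.0%.

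Tyrobp was at 2571, 3334 and 7349 CPM in replicate 1 and at 1827, 1888 and 3335 in replicate 2. That is 2.86-fold and 1.83-fold higher in the top tercile than in the lowest (log2 difference 1.19, SE 0.19, edgeR adjusted p = 3.93e-06). Hcst was at 51.4, 52.1 and 122 CPM in replicate 1 and at 32.9, 37.1 and 87.6 in replicate 2. The lower terciles were close to each other and the step came in the top tercile (log2 difference 1.31, SE 0.19, edgeR adjusted p = 7.09e-07). On sums of the cells thinned to 1000 UMIs, Hcst had 1.06 and did not pass (edgeR adjusted p = 0.13).

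Syk was at 94.6, 85.8 and 59.2 CPM in replicate 1 and at 87.8, 94.8 and 60.8 in replicate 2. It was lowest in the top tercile of both (log2 difference −0.61, SE 0.18, edgeR adjusted p = 0.0115). Plcg2 was at 98.4, 81.8 and 75.9 CPM in replicate 1 and at 90.3, 78.3 and 53.6 in replicate 2, a log2 difference of −0.51 (SE 0.18, edgeR adjusted p = 0.0362). Inpp5d was at 531, 496 and 313 CPM in replicate 1 and at 576, 578 and 399 in replicate 2, so that the phosphatase was at 58.9% and 69.2% of its level in the lowest tercile (log2 difference −0.65, SE 0.17, edgeR adjusted p = 0.00237). DESeq2, which called 5.89% of 14760 genes, did not call Syk or Plcg2 (adjusted p = 0.411 and 0.57), and Plcg2 was not called over all cells or without the filter on low counts (edgeR adjusted p = 0.0579 and 0.0518). Syk did not pass on the thinned sums (−0.61, edgeR adjusted p = 0.204), where Trem2, Tyrobp, Plcg2 and Inpp5d did.

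In the cells of at least 3000 UMIs, cut anew, the 6 genes kept these directions and passed, where 21% of 9084 genes did (12.9% higher and 8.12% lower). The log2 differences were 0.73 for Trem2, 1.24 for Tyrobp and 1.34 for Hcst, and −0.55 for Syk, −0.55 for Plcg2 and −0.67 for Inpp5d, with edgeR adjusted p of 0.0464 or lower. Syk and Plcg2 lay close to the threshold (edgeR adjusted p = 0.0452 and 0.0464), and neither passed on sums of thinned counts (edgeR adjusted p = 0.147 and 0.135), without the filter on low counts (edgeR adjusted p = 0.063 and 0.0534) or in DESeq2 (adjusted p = 0.667 and 0.588). Without library as a block, 1 of the 6 passed, Hcst, where 612 of 9084 genes did. With 1 week 5 library left out, each tercile had 1 sum and the spread came from the week 0 libraries. The 6 genes then kept their directions. Log2 differences were 0.54 to 0.93 for Trem2, 0.93 to 1.55 for Tyrobp and 1.24 to 1.53 for Hcst. They were −0.55 to −0.53 for Syk, −0.83 to −0.36 for Plcg2 and −0.72 to −0.61 for Inpp5d. Not all of the 6 passed in these fits, nor in those of cells of at least 1000 UMIs.

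**Figure D3:**
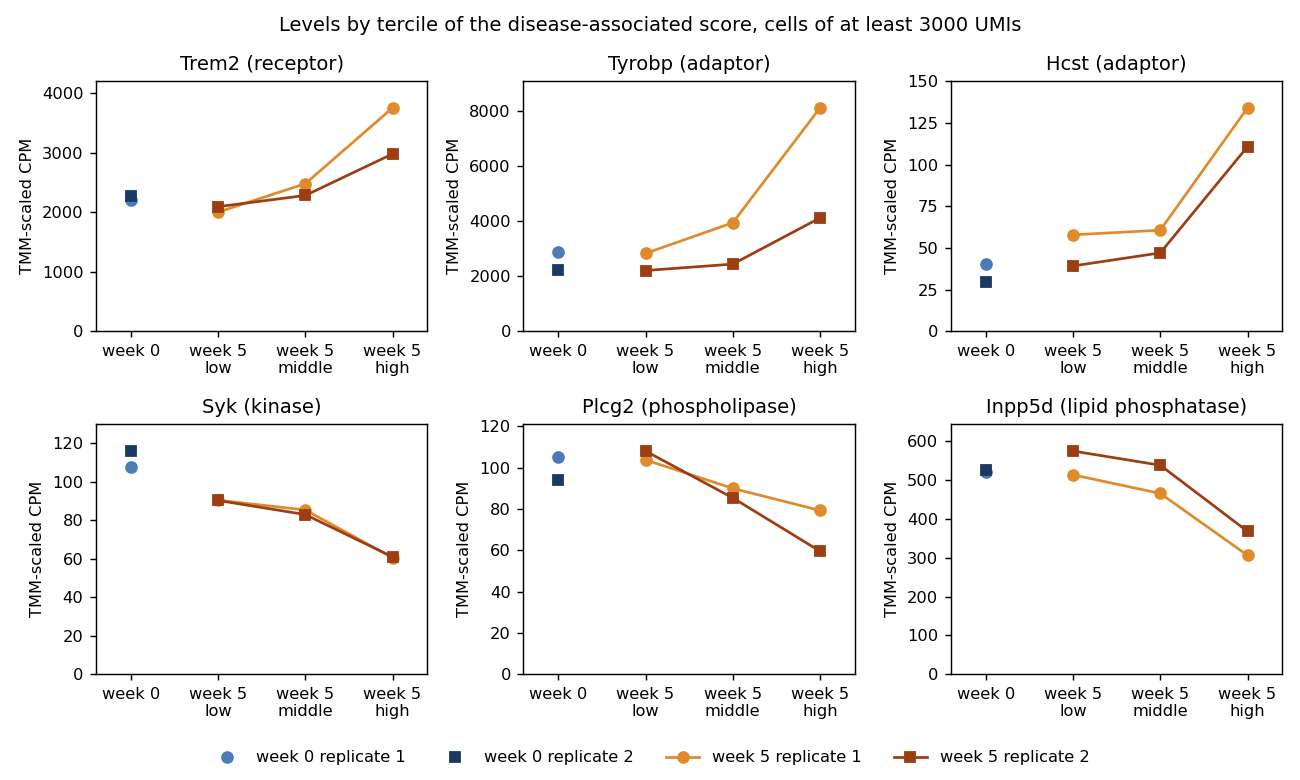
TMM-scaled CPM, scaled over these 8 sums together, of each gene in the week 0 libraries and in the terciles of the disease-associated score of each week 5 library, in microglia-like cells of at least 3000 UMIs (linear axes from 0). Trem2, Tyrobp and Hcst climb to the highest tercile and Syk, Plcg2 and Inpp5d descend in both libraries. The lowest terciles lie nearer to the week 0 libraries than the highest do, though Syk (90.4 and 90.2 against 107 and 116) and Trem2 are below both of week 0 and Hcst in replicate 1 (57.9 against 40.3 and 29.8) is above.

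The terciles also differed in depth and cell makeup. In week 5 replicate 1 the median cell had 5548 UMIs in the lowest tercile and 11163 in the highest, with Malat1 at 3.67% and 1.76%. In replicate 2 it had 4643 and 4003, with Malat1 at 5.58% and 5.03%. The 10 microglia markers summed to 28117 and 10821 plain CPM in the lowest and highest tercile of replicate 1, and to 28369 and 14811 in replicate 2. The 9 monocyte markers summed to 35.2 and 243 in replicate 1 and to 22.4 and 72.2 in replicate 2. In the highest terciles 4 and 5 of these 9 had a UMI, with Ly6c2, Chil3, F10 and S100a4 at 0 in both. The 10 border-associated macrophage markers summed to 272 and 252, and to 315 and 161. The 6 endothelial markers summed to 19.6 and 77.96 in replicate 1, with Cldn5, Esam, Ly6c1 and Slco1a4 at 0, and to 15.6 and 28.9 in replicate 2. The 6 choroid plexus or ependymal markers went from 20.3 to 425 in replicate 1 and from 3.90 to 0.962 in replicate 2. The part of depth and of these markers in the result was not tested beyond the ranges that follow.

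Depth and Malat1 share were held closer in added comparisons. Among cells of 3000 to 8000 UMIs, where 9.59% of 8198 genes passed, 3 of the 6 did: Trem2 (log2 difference 0.39, SE 0.07, edgeR adjusted p = 0.000327), Tyrobp (0.45, SE 0.07, edgeR adjusted p = 2.59e-05) and Inpp5d (−0.42, SE 0.10, edgeR adjusted p = 0.00599). In this range Tyrobp was at 3025, 2973 and 4049 CPM in the terciles of replicate 1 and at 2271, 2463 and 3177 in those of replicate 2. The difference in Tyrobp was thus 1.34-fold and 1.40-fold, beside 2.86-fold and 1.83-fold in cells of at least 1000 UMIs. Its log2 difference of 0.45 stands beside 1.24 in all cells of at least 3000 UMIs. The cells were cut anew, so the gap in state narrowed as well. The state genes took 5.00% and 4.19% of UMIs in these highest terciles, beside 9.30% and 6.08% in those of all cells of at least 3000 UMIs. Hcst (0.72, edgeR adjusted p = 0.0537), Syk (−0.44, edgeR adjusted p = 0.221) and Plcg2 (−0.57, edgeR adjusted p = 0.067) did not pass.

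The same 3 genes passed among cells of at least 3000 UMIs with Malat1 at 2% to 5% of UMIs, where 13.1% of 8002 genes did. The log2 differences were 0.47 for Trem2 (edgeR adjusted p = 1.32e-05), 0.54 for Tyrobp (edgeR adjusted p = 1.22e-07) and −0.48 for Inpp5d (edgeR adjusted p = 0.00492). Trem2 was at 2034, 2148 and 2905 CPM in the terciles of replicate 1 there, and at 2056, 2446 and 2761 in those of replicate 2. Inpp5d was at 524, 502 and 386 CPM and at 558, 560 and 388. The 2 replicates lay close for these 2 genes in the lowest and highest terciles, and further apart in the middle one. The cells were cut anew here too. The state genes took 7.28% and 5.39% of UMIs in these highest terciles, beside 9.30% and 6.08% without the Malat1 range. Hcst kept a log2 difference of 0.34 with an interval of −0.17 to 0.85 (edgeR adjusted p = 0.497), so its rise across the terciles was not detectable there, on 50 and 22 UMIs in the lowest terciles.

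For treated cells low in the state, no difference from untreated cells passed in these genes. Against the 2 week 0 libraries, the lowest tercile gave 0 of 6 calls in edgeR, limma-voom and DESeq2, which called 0.838%, 0.878% and 0.412% of all genes. At an unadjusted p under 0.05 edgeR found 1 gene, Hcst (58.5 and 37.7 CPM against 28.5 and 32.2, log2 difference 0.67, SE 0.25, edgeR adjusted p = 0.487). Trem2 had a log2 difference of −0.07 with a 95% interval of −0.57 to 0.42, and Tyrobp one of 0.17 with an interval of −0.34 to 0.68. The interval of Inpp5d was −0.56 to 0.37. Syk was lower in both lowest terciles (108 and 101 CPM against 134 and 124), with a log2 difference of −0.31 and an interval of −0.71 to 0.10 (edgeR adjusted p = 0.977).

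For treated cells high in the state, 2 of 6 genes passed against week 0, Hcst and Syk, where 13.4% of 10535 genes did. Hcst was at 119 and 85.4 CPM against 24.3 and 27.8 at week 0 (log2 difference 1.98, SE 0.27, edgeR adjusted p = 0.000418). Syk was at 57.8 and 59.3 CPM against 115 and 107 (−0.92, SE 0.25, edgeR adjusted p = 0.0299). The call on Syk was lost in DESeq2 (adjusted p = 0.0892), without either week 0 library (edgeR adjusted p = 0.282 and 0.195) with replicate number as a block (edgeR adjusted p = 0.0625) and on sums of thinned counts (edgeR adjusted p = 0.318). On those sums Hcst was not called either (1.41, edgeR adjusted p = 0.0558).

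Tyrobp was at 7182 and 3250 CPM in the highest terciles against 1758 and 2058 at week 0. Both treated values were above both untreated ones, but the spread between the week 5 libraries was wide (log2 difference 1.45, SE 0.52, edgeR adjusted p = 0.0931). DESeq2, which called 6.77% of all genes, called it (adjusted p = 0.00131). Without week 5 replicate 2 the log2 difference was 1.98 in edgeR, where week 5 had 1 library and so no spread of its own. Trem2 was at 3413 and 2509 CPM against 1635 and 2151 (0.65, SE 0.45, edgeR adjusted p = 0.403), and Inpp5d at 305 and 389 against 654 and 503 (−0.74, SE 0.34, edgeR adjusted p = 0.19). Neither gene overlapped between the groups and neither passed, so this describes these sums only. In cells of at least 3000 UMIs the same 2 genes passed, Hcst (1.88, edgeR adjusted p = 0.00149) and Syk (−0.86, edgeR adjusted p = 0.037), where 12% of 9887 genes did. The call on Syk was again lost in DESeq2 (adjusted p = 0.177) and without either week 0 library (edgeR adjusted p = 0.197 and 0.384), but not on thinned sums. Tyrobp had 1.29 there (edgeR adjusted p = 0.103). It passed without the filter on low counts (edgeR adjusted p = 0.0336), in DESeq2 (adjusted p = 0.00384) and with replicate number as a block (edgeR adjusted p = 0.00907). The first and last of these fits also called more of all genes than the main one. As each library was left out, the log2 difference ran from 0.71 to 1.74. In the lowest tercile of those cells 0 of 6 passed in edgeR (1 at an unadjusted p under 0.05), limma-voom and DESeq2, which called 0.614%, 0.582% and 0.264% of all genes. The comparisons of both terciles with week 0 share the week 0 libraries.

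**Figure D4:**
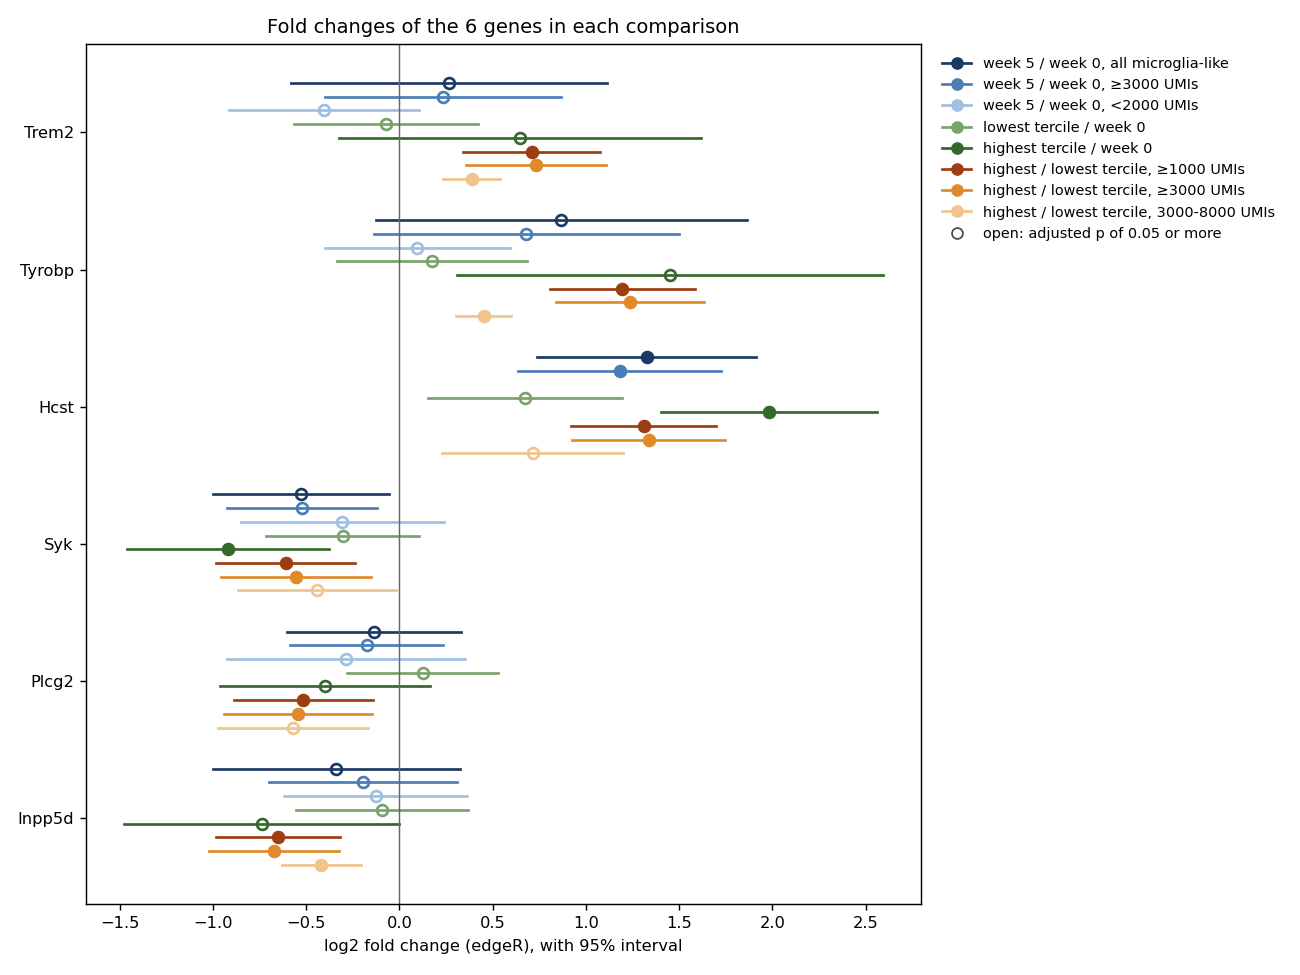
Log2 fold change of each gene in 8 comparisons (edgeR, points with 95% intervals; open points did not pass an adjusted p of 0.05). Differences between the terciles within week 5 split the genes into 3 that rose and 3 that fell, those of the lowest tercile against week 0 lie around 0 except for Hcst at 0.67 and Syk at −0.31, and Hcst has no point in cells under 2000 UMIs, where it was not tested.

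The spread of the genes between cells was read in cells of at least 3000 UMIs, each thinned to 3000. Tyrobp had a mean of 8.90 and 7.69 UMIs in a cell at week 0 and of 11.6 and 8.37 at week 5. Its variance was 1.59 and 1.65 times the mean at week 0 and 3.72 and 3.21 times at week 5. Tyrobp thus varied more from cell to cell in both treated libraries, also in replicate 2, whose mean lay between those of week 0. Trem2 had means of 6.97 and 7.45 against 6.97 and 7.23 UMIs, and its variance was 1.57 to 1.77 times the mean in all libraries. No test was made on these 4 values.

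Trem2 and Tyrobp were detected in nearly every such cell, Trem2 in 99.1% to 99.6% and Tyrobp in 99.2% or more. Hcst was found in 12% and 8.81% of cells at week 0 and in 16.0% and 16.1% at week 5, and Syk in 26.2% and 30.5% against 18.8% and 19.1%. Inpp5d was found in 80.9% and 78.7% against 64.0% and 75.1%, and Plcg2 in 28.0% and 24.5% against 20.0% and 23.1%. Shares of cells with a UMI for these 4 genes did not overlap between the weeks. How many of all genes part in this way was not counted, so this describes the 4 genes only. In 18 cells of the same depth that were neither microglia-like nor macrophage-like, 38.9% had a UMI of Trem2 and 38.9% of Tyrobp, 5.56% of Syk, 5.56% of Plcg2 and 11.1% of Inpp5d, and 0 had one of Hcst, which allows a share of up to 16.7%. The microglia-like shares of Trem2, Tyrobp and Inpp5d lay above that background. Those of Syk and Plcg2 were above the shares seen there, but each of these rests on 1 of 18 cells. Syk, Plcg2 and Hcst are thus not set apart from background here.

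The ratio of adaptor to receptor was also read. In cells of at least 3000 UMIs there were 1.29 and 0.976 Tyrobp UMIs for each of Trem2 at week 0 and 1.85 and 1.18 at week 5. Across the terciles the ratio went from 1.41 to 1.59 and 2.16 in replicate 1 and from 1.05 to 1.07 and 1.38 in replicate 2. It was 0.439 to 0.633 in cells under 2000 UMIs, so this ratio also moved with depth. Hcst, whose 3′ end faces that of Tyrobp, had 1.41 and 1.34 UMIs for each 100 of Tyrobp at week 0 and 1.69 and 2.22 at week 5. In the microglia-like clusters this figure ran from 1.07 to 2.24. Whether reads of one of the pair were counted for the other was not tested.

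The 6 genes were not used to form the clusters. In the microglia-like cluster led by Fabp5, Apoc1, Cst7 and Spp1, with 271 cells of which 270 came from week 5, Tyrobp was at 5713 plain CPM and Hcst at 98.8, the highest of the 7 clusters. Inpp5d at 200, Syk at 37.6 and Plcg2 at 50.04 were the lowest there. Trem2 was at 2573, within the 2297 to 2654 of the clusters led by ribosomal genes, by Pnp and Cst3 and by P2ry12. A cluster led by Ccl4 and Lilrb4a (192 cells, 185 of them from week 5) had Tyrobp at 2220, Trem2 at 2082 and Syk at 58.8. In both shallow clusters (1063 and 328 cells), Tyrobp was at 628 and 645 and Inpp5d at 1069 and 1067.

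The 100 border-associated macrophage-like cells, led by MHC class II genes, Mrc1 and Pf4, had Trem2 at 706 plain CPM against 2284 in the microglia-like cells, and Tyrobp at 2607 against 3039. Plcg2 was at 29.6 against 85.7 and Inpp5d at 189 against 536. Hcst was at 150 against 50.6. At a finer resolution of 18 clusters this group parted into 73 macrophage-like cells with Hcst at 50.03, and Hcst was at 385 in an unnamed cluster of 29 cells led by S100a6, Itgal and Plac8, whose highest markers of another type were those of T and NK cells. In those 29 cells Trem2 was at 36.7, Tyrobp at 1615, and Hcst had 23.9 UMIs for each 100 of Tyrobp. The lower Trem2, Plcg2 and Inpp5d of the macrophage-like cells were seen at both resolutions (988, 21.1 and 227 at the finer one). Values by cluster carry no test, since the clusters were made from these cells.

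Of 78 other genes of the pathway, fixed in 9 lists by role, 67 passed the filter on low counts. Between the weeks 3 of these 67 passed (4.48%, against 3.5% of all genes), each higher at week 5. Fgr, a Src family kinase, was at 4.55 and 2.74 CPM at week 0 and at 29.8 and 15.9 at week 5 (log2 difference 2.74, SE 0.42, edgeR adjusted p = 0.003). Lilrb4a, an inhibitory receptor, was at 19.5 and 2.74 CPM against 152 and 105 (3.73, SE 0.56, edgeR adjusted p = 0.00286). Cd300lb, a receptor that pairs with TYROBP, had 3 UMIs in both week 0 libraries and 67 in those of week 5, a ratio of 16.1 with a counting interval of 5.29 to 80.2. It passed the filter only through week 5, so its call supports nothing about the list. The median log2 difference of the 67 genes was −0.10, beside −0.02 for all genes. In cells of at least 3000 UMIs, Fgr and Lilrb4a passed, 2 of 66.

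Across the terciles of the score, 26 of the 67 passed (38.8%, against 23.0% of all genes), 8 higher and 18 lower in the highest tercile, with a median log2 difference of −0.25 beside −0.02 for all genes. Among receptors that pair with Tyrobp or Hcst, 4 of 12 were tested and 1 passed in each direction. Cd300lb went from 0 to 56 UMIs, at least 11.2-fold higher against a floor of 3 UMIs over both lowest terciles. It passed the filter only through the higher terciles, and in cells of at least 3000 UMIs it was not tested. Siglech, a receptor of resting microglia that also uses TYROBP, went from 1644 to 477 CPM in replicate 1 and from 1776 to 933 in replicate 2 (−1.34, edgeR adjusted p = 3.51e-07). Csf1r, the receptor for CSF1, was at 3526 and 3224 CPM in the lowest and 2471 and 2529 in the highest terciles (−0.43, edgeR adjusted p = 0.0811). Fcer1g, the other ITAM adaptor, rose with Tyrobp, from 1942 to 3657 and from 1550 to 2293 CPM (0.74, edgeR adjusted p = 0.00145). Adam10, which sheds the TREM2 ectodomain, fell (−0.47, edgeR adjusted p = 0.0288), and Adam17 did not pass. In cells of at least 3000 UMIs neither sheddase passed.

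The Src family kinases did not move together. Fgr (2.65, edgeR adjusted p = 8.51e-08) and Fyn (0.90, edgeR adjusted p = 0.0249) rose, and Src (−1.52) and Lyn (−0.47, edgeR adjusted p = 0.0371) fell. Lyn had the highest level of the list, from 781 to 499 CPM in replicate 1 and from 646 to 532 in replicate 2. Of 10 tested Tec kinases and Syk adaptors, Tec and Sh3bp2 rose and Lcp2 and Vav1 fell, while Blnk, at the highest level, had 0.35 (edgeR adjusted p = 0.12).

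The PI3-kinase and calcium lists held called genes at about the rate of all genes or below it (15.4% and 25%, against 23.0%). In the PI3-kinase and Akt list, 2 of 13 passed, both lower: the regulatory subunit Pik3r1 (−1.03, edgeR adjusted p = 8.61e-06) and the catalytic subunit Pik3cg (−0.98, edgeR adjusted p = 1.72e-05). In the calcium and PKC arm below Plcg2, 4 of 16 passed, all lower, the kinase Prkca (50.1 to 10.2 and 67.5 to 24.7 CPM, −1.88, edgeR adjusted p = 2.58e-07), the phospholipase Plcg1 (−0.89), the calcium channel gene Itpr2 (−0.66) and the transcription factor gene Nfatc1 (−0.58). Prkcd, the highest of that list, had −0.05 (edgeR adjusted p = 0.87). Of 3 MAP kinases, Mapk3 rose (0.48, edgeR adjusted p = 0.0401), but 0 of the 3 passed in cells of at least 3000 UMIs.

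Among the phosphatases and other brakes, 6 of 13 passed, 1 higher and 5 lower. Lilrb4a rose (4.55, edgeR adjusted p = 4.7e-17), from 6.89 to 285 CPM in replicate 1 and from 18.6 to 279 in replicate 2. Siglece, an inhibitory lectin, fell from 64.6 to 3.09 and from 54.9 to 15.5 CPM (−3.06, edgeR adjusted p = 1.54e-09), and the docking protein Dok3 (−1.73), the inhibitory receptor Cd33 (−0.90, edgeR adjusted p = 3.97e-05) and Ubash3b (−0.51) fell too. Inpp5d thus fell beside these negative regulators, while Lilrb4a went the other way. Over all lists in cells of at least 3000 UMIs, 23 of 66 passed, 6 higher and 17 lower, where 21% of all genes did (12.9% higher and 8.12% lower).

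**Figure D5:**
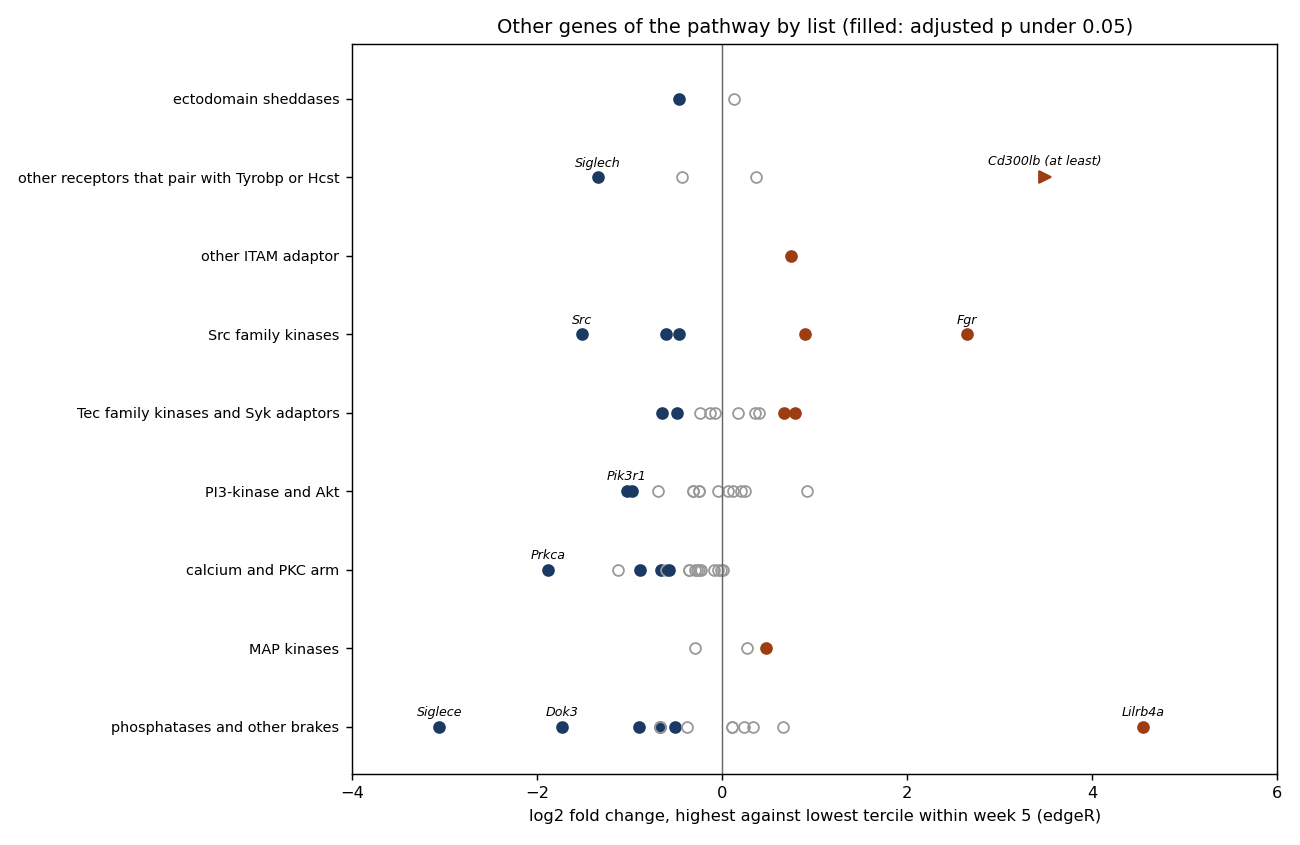
Log2 fold change between the highest and the lowest tercile within week 5 (edgeR) for the tested genes of the 9 pathway lists, 1 point for each gene; filled points passed an adjusted p of 0.05, and the triangle is the lower bound for Cd300lb, which had 0 UMIs in the lowest terciles. Src family kinases lie on both sides of 0, and the called genes of the PI3-kinase and calcium lists all lie below it.

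Genes that earlier work in mice sorted by their need for Trem2 were set beside the 6. Of 10 late disease-associated genes, described as dependent on Trem2, 8 were higher at week 5 in the microglia-like cells, where 3.5% of all genes passed, with a median log2 difference of 4.05 (Axl, Ccl6, Clec7a, Csf1, Cst7, Itgax, Lilrb4a and Lpl). Of 7 early genes, described as independent of it, 2 were higher, Apoe (6.05) and Lyz2 (3.0015), with a median of 1.76. Of 16 homeostatic genes, 1 was lower, Slc2a5 (−1.14, edgeR adjusted p = 0.036), with a median of −0.54. Trem2 itself had 0.27 and did not pass. In the lowest tercile against week 0, 9 of the 10 late genes passed the filter on low counts, and 7 at 3000 UMIs or more. Some may thus have passed it between the weeks only through week 5 cells, so the count of 8 supports nothing about the list. These lists were chosen with earlier results of these data known. Of the late and early genes, 6 and 1 are in the score, so their values across the terciles are not given. Of the 16 homeostatic genes 0 are in it. Across the terciles 11 of them were lower in the highest, where 9.26% of all genes were, with a median log2 difference of −0.81.

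Over the 8 sums (2 untreated libraries and 6 terciles), the 5 genes most like Trem2 of 6510 with at least 20 CPM were Psmb6, Anp32b, Fkbp1a, Gpx4 and C1qb (Pearson's r of log2 CPM 0.989 for Psmb6). Tyrobp came at rank 140 (r = 0.933) and Inpp5d at the last rank (r = −0.984). The genes most like Tyrobp were Gnas, Atox1, Ssr4, Hspe1 and Txndc17, and those most like Hcst were Banf1, Rpl5, Rpl30, Snrpg and Rpl7a. Inpp5d was most like Ivns1abp, Pld1, Csmd3 and Dip2b, Syk most like Bcl9, Hook3, Helz, Exoc6b and Stxbp5, and Plcg2 most like St3gal2, Iscu, Cyb561a3, Pum2 and Lrrcc1. Sums of 1 library share their library, and the sums differ in depth and Malat1 share, so these are descriptions with no p. Across all genes tested, the log2 difference between the terciles went down with the length of the gene (Spearman's rho −0.215 over 9509 genes, which are not independent). Trem2, Tyrobp and Hcst span 7747, 3826 and 2143 bases, and Syk, Plcg2 and Inpp5d 65620, 136852 and 100196. The genes that fell are thus the long ones, and the part of gene length in the result was not tested.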

How the data were processed

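The authors deposited whole UMI counts per gene and barcode, 1 table for each of 4 libraries with 1000 barcodes each; the submitters' processing notes name STAR, Cell Ranger 3.0.0, Seurat 4 and the mm10 build, with no role for each. How the barcodes were chosen is not stated there. Barcodes under 500 genes or above 10% mitochondrial UMIs were left out (272 of 4000), and 21 doublets (0.563%) were removed with Scrublet in scanpy. Cells were clustered with scanpy 1.11.5 and leidenalg 0.10.2 (2000 variable genes, 30 components, resolution 1) and named from marker lists. None of the 6 genes was among the variable genes. Counts were summed for each library and tested with edgeR 4.0.16 (quasi-likelihood, TMM, filterByExpr, Benjamini-Hochberg over all genes tested), with DESeq2 1.42.0 and limma 3.58.1 as alternatives; terciles of the score were compared with library as a block. The script was tested on simulated data. Plain CPM, used for depth bands, clusters and markers, carry no TMM scaling. Intervals on them cover counting error only. The replicate numbers shared by the weeks were treated as numbers only. The genes and lists were chosen with earlier results of these data known. Pathway genes named are those called, at most 12 a comparison by size of change, and the gene of highest level in each list; Adam17, Tec, Sh3bp2, Lcp2, Vav1, Plcg1, Itpr2, Nfatc1 and Ubash3b were added, after their values were seen, to complete short counts; some genes are not reported here. Alternatives were scaling, filter, tool, block, thinning, resolution and each library left out; those on depth, Malat1 and the crossed block were chosen after seeing the data.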

Additional observations from a re-analysis of the deposited data

How the results depend on the processing

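Scaling by library size put the median log2 difference of all genes at −0.25 (microglia-like), −0.24 (all cells), −0.26 (at least 3000 UMIs), −0.48 and −0.53 (terciles, at least 1000 and 3000 UMIs) and −0.54 and −0.57 (highest tercile against week 0); the share of calls that were higher went from 89.9% to 75.3%, 90.7% to 76.6%, 89.1% to 72.6%, 59.7% to 17.0%, 61.3% to 15.4%, 68.5% to 27.4% and 68.5% to 25.02% in that order. Of the 6 genes, 1 passed between the weeks in microglia-like cells: 0 with cells thinned to 1000 UMIs, without the cluster highest in the score or under 2000 UMIs, and 1 to 2 with a library left out. Over all cells it was 0 thinned and 1 to 2 with a library left out. At 3000 UMIs or more it was 0 by library size, thinned or without that cluster, 2 with the replicate block (Syk joined, adjusted p = 0.0138) and 0 to 2 with a library left out. Of 6 genes that passed between the terciles, 1 did with no replicate block and 1 to 2 with a library left out; at 3000 UMIs or more these were 1 and 2 to 3, and 3 in the Malat1 or 3000 to 8000 UMI range. The highest tercile against week 0 gave 2, then 4 by library size, 1 with the replicate block, 0 thinned and 1 to 5 with a library left out; at 3000 UMIs or more 4 by library size and 1 to 5. Pathway genes called between the weeks went from 3 to 5 (library size, no filter or a common limit on genes per cell), 6 (crossed replicate block), 1 (thinned or under 2000 UMIs) and 2 to 7 with a library left out; at 3000 UMIs or more from 2 to 6 (no filter), 1 (DESeq2), 9 (replicate block) and 0 to 9. Between the terciles they went from 26 to 11 (DESeq2), 8 (no replicate block), 14 (thinned) and 4 to 14; at 3000 UMIs or more from 23 to 35 (library size), 9 (DESeq2), 7 (no replicate block), 13 (score without Apoe, or 3000 to 8000 UMIs) and 3 to 19.

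Directions turned only in differences that did not pass (the cause was not tested). Trem2 between the weeks was −0.41 under 2000 UMIs; over all cells it was −0.017 by library size, −0.012 thinned and −0.0022 to 0.47 with a library left out; at 3000 UMIs or more it was −0.014 by library size. Plcg2 was −0.24 to 0.0062 with a library left out. In the lowest tercile, leaving out a library gave −0.26 to 0.13 for Trem2, −0.098 to 0.40 for Tyrobp and −0.28 to 0.11 for Inpp5d (0.0029 thinned); at 3000 UMIs or more it gave −0.22 to 0.17 for Tyrobp and −0.023 to 0.12 for Inpp5d. The other values kept their direction, 51 of 72 also their side of the threshold between the terciles and 46 of 72 at 3000 UMIs or more.

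The number of all genes called moved too. Between the weeks it was 387 in microglia-like cells, against 850 with no filter, 1496 without week 5 replicate 2, 172 thinned, 581 with the common limit, 825 with the crossed replicate block and 108 under 2000 UMIs. Over all cells it was 302, against 918 with no filter, 538 and 1341 without week 0 replicate 1 and week 5 replicate 2, 200 thinned, 501 with the common limit and 107 at 3000 UMIs or more. In microglia-like cells of at least 3000 UMIs it was 338, against 941 with no filter, 1289 with the replicate block, 0 without either week 0 library and 1557 without week 5 replicate 2. Between the terciles it was 2206, against 3713 by library size, 869 in DESeq2, 554 with no replicate block, 882 thinned and 304 without week 5 replicate 1; at 3000 UMIs or more it was 1907, against 3618, 778, 612, 1118 and 426, with 1045 and 786 in the Malat1 and depth ranges. The lowest tercile against week 0 gave 83, against 140 with no filter, 144 without week 5 replicate 2 and 31 thinned, and at 3000 UMIs or more 57, against 143, 115 and, with the replicate block, 223. The highest gave 1411, against 2146 by library size, 788, 705 and 3214 without week 0 replicates 1 and 2 and week 5 replicate 2, and 595 thinned; at 3000 UMIs or more it gave 1185, against 2026 by library size, 1893 with no filter, 1895 with the replicate block, and 541 and 3047 without week 0 and week 5 replicate 2. Deviations of same-numbered libraries had a correlation of −0.14 over microglia-like cells, −0.038 over all cells and 0.26 at 3000 UMIs or more, so the 2 pairs do not show whether the replicate numbers pair the libraries. Depth limits Hcst most, with 60 UMIs in week 0 replicate 1.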
